A study of Mus musculus with 3 samples.

Results

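The 2 libraries compared here came from wild-type C2C12 cells (WT) and from C2C12 cells labelled as a Drp1 knockout (KO), out of 3 libraries in all. C2C12 is an immortalized mouse myoblast line that fuses into multinucleated myotubes when differentiated, and RNA was taken after 4 days of differentiation in every group. The other library (rescue) came from the knockout cells with transient expression of FLAG-Drp1. Its values are printed beside the others, and any comparison with it would share the WT or the KO library. The sources used here do not give how the knockout was made, whether the cells were a single clone or what share of them had fused. Genes were the members: of 46316 gene symbols in the tables, the 13382 whose CPM (count scaled to the library's total) averaged at least 1 over the 3 libraries were compared, 11830 of them with at least 1 mRNA record. Each group had 1 library, so no difference has a replicate check and none was tested. KO below means the library with that label.

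Drp1, encoded by Dnm1l, is a dynamin-related GTPase that is recruited to mitochondria by adaptor proteins and constricts them until they divide. Division is balanced by fusion through mitofusins and Opa1, and in muscle the balance shapes the mitochondrial network and its clearance. Mitochondrial faults are known to switch on the integrated stress response, in which phosphorylation of the initiation factor eIF2alpha favours translation of ATF4, a transcription factor of amino acid synthesis, uptake and tRNA charging genes. During differentiation, myoblasts leave the cell cycle, fuse, and express embryonic and later neonatal and adult forms of the contractile proteins.

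Depth was nearly equal, the WT genes summing to 13894114 counts, the KO genes to 13790417 and the rescue genes to 13925296. The 100 most abundant genes took 30.9% of TPM (counts per kilobase of transcript, scaled to a fixed sum) in WT and 31.2% in KO. Bulk RNA cannot tell fewer cells of a type from less RNA per cell, and this holds for every value below. Myotube markers were abundant in every library as a sum, with 30002 TPM in WT, 27682 in KO and 36456 in rescue. None of the 15 was at 0, but 3 of them (Ckm, Mymx and Cav3) were at least 2-fold lower in KO and none was higher. Markers of other cell types differed in level. Smooth muscle and pericyte markers summed to 3177 TPM in WT and 4006 in KO. Most of each sum was Acta2, smooth muscle actin, at 2882 and 3644 TPM (48154 and 57215 counts). Osteoblast and chondrocyte markers summed to 873 and 1076 TPM, with 7 of 12 at 0 in each of the pair. Most of each sum was Spp1, osteopontin, at 811 and 1025.5 TPM (7772 and 9234 counts). Myoblast and satellite cell markers summed to 1496 and 1365 TPM. The endothelial list summed to 1.56 TPM in WT and 1.54 in KO, with Pecam1 at 0 counts in both. The macrophage list summed to 12.9 and 18.7 TPM, with Adgre1 and Ptprc at 0 and Cd68 at 22 and 55 counts. Of 12 adipocyte markers, 7 were at 0 in each of the pair, among them Adipoq, and the summed level of 61.2 TPM in WT and 192 in KO came with 1113 and 4195 counts of Lpl, lipoprotein lipase. Fibroblast markers summed to 1433 TPM in WT and 918 in KO, and of the 9 that passed the filter 3 were 2-fold higher and 2 lower. Schwann and neuronal markers summed to 138.5 and 73.3 TPM.

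Dnm1l itself had counts of 1823 in WT, 1284 in KO and 1481 in rescue. Its log2 ratio of KO over WT was -0.48, with a 95% counting interval of -0.58 to -0.38, which covers counting error only. The transcript was therefore lower in KO but still present. All 25 of its transcript rows had nearly the same ratio, but they share most of their reads and are not separate measurements. A library total per gene does not show whether an edit disrupts the protein.

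Most genes differed little between the libraries. The median log2 ratio was 0.00, and 10362 genes (77.4%) lay within 1.5-fold. A ratio of 2-fold or more was reached by 716 genes higher in KO, 5.35% of those compared, and by 545 lower, 4.07%. These shares are the background for the counts of list members below. The whole counting interval was past 2-fold in 350 higher genes (2.62% of those compared) and 271 lower genes (2.03%). A ratio of 8-fold or more was reached by 66 genes higher and 75 lower. Genes past 2-fold were concentrated at low counts: they made up 25.4% of the lowest of 5 equal bins by expression and 3.33% of the highest.

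**Figure D1:**
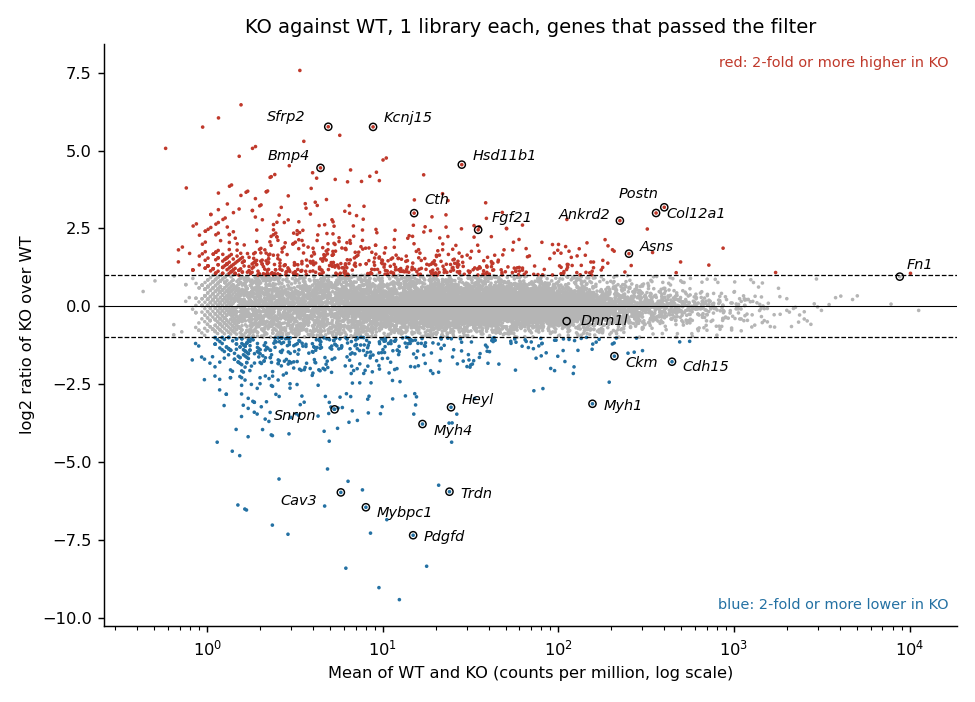
Each point is 1 of the 13382 genes compared, with its mean CPM in WT and KO on a log axis and its log2 ratio of KO over WT on the other, and dashed lines mark 2-fold. The cloud is widest at low CPM, where 25.4% of genes pass 2-fold, and among abundant genes Postn and Col12a1 lie above it while Cdh15 and Myh1 lie below it.

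Genes of amino acid stress were among those higher in KO. Of 20 transcription factors and regulators of the ATF4 and CHOP programme, 7 passed 2-fold upward and none downward, with a median log2 ratio of 0.44. Neither Atf4 nor Ddit3, which encodes CHOP, was among the 7. Trib3, a pseudokinase that restrains the programme, had counts of 145 in WT, 836 in KO and 720 in rescue. Its log2 ratio was 2.55 (interval 2.30 to 2.82). Atf3, a stress-induced transcription factor, had counts of 199 in WT, 762 in KO and 640 in rescue, and Chac1, which degrades glutathione, had counts of 296 in WT, 906 in KO and 854 in rescue. In all 3 genes the KO and rescue libraries were both above WT. Eif2ak4, the amino acid sensing kinase GCN2, was also higher with counts of 235 in WT, 561 in KO and 467 in rescue. Sesn2 and Ddit4, which restrain mTORC1, were 2.44-fold and 2.32-fold higher, and Cebpb, a partner of ATF4, had counts of 39 in WT, 102 in KO and 76 in rescue. Eif2ak3, the endoplasmic reticulum kinase PERK, lay on the other side of 0, at 432 counts for WT and 326 for KO.

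Enzymes of amino acid synthesis and folate metabolism had a median of 0.81, and 7 of 20 passed 2-fold, all upward. Cth, the last enzyme of cysteine synthesis, had counts of 47 in WT, 370 in KO and 341 in rescue, a log2 ratio of 2.99 (interval 2.56 to 3.47). Asns, asparagine synthetase, had counts of 1677 in WT, 5312 in KO and 5223 in rescue. Aldh1l2, the mitochondrial formyltetrahydrofolate dehydrogenase, had counts of 801 in WT, 3227 in KO and 2399 in rescue. In these genes KO and rescue were both well above WT. The proline synthesis enzymes Pycr1 and Aldh18a1 were 3.44-fold and 2.68-fold higher, and Phgdh, the first enzyme of serine synthesis, was 2.14-fold higher. The mitochondrial folate enzyme Mthfd2 was 2.48-fold higher, while its cytosolic relative Mthfd1 had 811 counts in WT and 838 in KO. Glul, glutamine synthetase, did not follow, with 1766 counts in WT and 1329 in KO.

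Amino acid transporters had 8 of 19 members at least 2-fold higher, none lower, and a median of 0.84. The abundant pair Slc7a5 and Slc3a2, which together form the LAT1 exchanger of large neutral amino acids, were 3.31-fold and 2.47-fold higher. Slc7a5 had counts of 2242 in WT, 7283 in KO and 6263 in rescue, and Slc3a2 had counts of 2100 in WT, 5105 in KO and 4770 in rescue. Slc7a3, a cationic amino acid transporter, had counts of 18 in WT, 150 in KO and 106 in rescue. Slc7a11, the cystine exchanger, was lower in abundance, with counts of 34 in WT, 115 in KO and 81 in rescue. The taurine transporter Slc6a6 went the other way, with counts of 14712 in WT, 7588 in KO and 7370 in rescue, just short of 2-fold. Cytosolic aminoacyl-tRNA synthetases, which load tRNAs, moved less: none of 20 reached 2-fold, but 17 lay above 0 and the median was 0.37. Wars and Rars were the highest of them, with log2 ratios of 0.86 and 0.79.

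Secreted stress hormones went both ways. Fgf21, a hormone released by stressed muscle and liver, had counts of 151 in WT, 815 in KO and 994 in rescue, and Gdf15, which acts on the brainstem to lower appetite, had counts of 270 in WT, 582 in KO and 549 in rescue. Both were higher in KO and rescue than in WT. Fndc5, the precursor of irisin, was lower with counts of 234 in WT, 85 in KO and 108 in rescue. None of 24 genes of the endoplasmic reticulum unfolded protein response reached 2-fold (median 0.07), and none of 20 mitochondrial chaperones and proteases did (median 0.04). The highest of the latter was Lonp1, the matrix protease, at 0.91 with 1573 counts in WT and 2914 in KO. Heat shock genes lay below 0 in 14 of 16 cases, with a median of -0.43, and Hspb7, a small heat shock protein of muscle, had counts of 341 in WT, 148 in KO and 464 in rescue. Metallothioneins, which bind zinc and copper, were lower: Mt1 had counts of 644 in WT, 215 in KO and 293 in rescue. Mt2 had counts of 264 in WT, 63 in KO and 130 in rescue. Prdx1, an abundant peroxiredoxin, was 2.03-fold lower.

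Promoter windows from RefSeq (build GRCm38.p6, not the build of the counts) were searched for the C/EBP-ATF core TGATGNAA on either strand, because ATF4 dimers are known to bind this kind of element. A window ran from 250 bases before to 50 bases after a start site, and 9939 of the genes compared had at least 1. The letters occurred in 2.71% of all these genes, in 5.15% of those 2-fold higher and in 3.92% of those 2-fold lower. They occurred in 4 of 18 ATF4 and CHOP genes, 3 of 15 synthesis enzymes, 2 of 13 transporters and 5 of 13 tRNA synthetases. Stretches of 60 bases are shown for 4 of these genes whose match lies before the start site, with the match in capitals and read along the gene's strand, 5′ to 3′. The 4 shown were all past 2-fold higher. Among other listed genes with a match before the start site, Asns had a log2 ratio of 1.69. Slc1a4, Gars, Tars, Got1 and Nupr1 also had such a match, with log2 ratios of 0.67, 0.58, 0.39, 0.23 and 0.15. In Atf3, Chac1 and Slc7a11 the capitals are the core's reverse complement. The Slc7a11 stretch holds another match, on the forward strand, left in lower case.
Atf3, chr1:191183410-191183469, minus strand: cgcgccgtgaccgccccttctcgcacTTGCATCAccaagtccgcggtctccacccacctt
Chac1, chr2:119351023-119351082, plus strand: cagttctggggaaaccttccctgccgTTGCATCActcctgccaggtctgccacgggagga
Pycr1, chr11:120643818-120643877, minus strand: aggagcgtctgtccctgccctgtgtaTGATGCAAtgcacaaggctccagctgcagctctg
Slc7a11, chr3:50443627-50443686, minus strand: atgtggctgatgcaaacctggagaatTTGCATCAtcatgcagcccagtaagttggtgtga
A match describes the letters and says nothing of binding. The cyclic AMP response element TGACGTCA was in 3.57% of all genes and in 1.58% of those 2-fold higher and 0.783% of those 2-fold lower.

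Nuclear genes of the respiratory chain were slightly lower in KO as groups, with no listed subunit past 2-fold. The muscle-specific cytochrome oxidase forms are described with the isoform pairs. Of 36 complex I subunits, 33 lay below 0, with a median of -0.28, and of 40 subunits of complexes II to V, 38 did, with a median of -0.32. Ndufb2, an accessory subunit, had counts of 362 in WT, 215 in KO and 341 in rescue. Cox7b had counts of 2523 in WT, 1356 in KO and 1854 in rescue. Mitochondrial ribosomal proteins had a median of -0.15 over 59 genes and import genes a median of -0.20 over 26, with Tomm5, a small subunit of the outer membrane pore, 2.01-fold lower. Short transcripts as a whole were lower in KO: the median log2 ratio went from -0.21 in the shortest of 10 equal bins of protein-coding genes, with a median length of 997 bases, to 0.20 in the longest, at 9938 bases. With that trend removed the medians became -0.13 for complex I, -0.17 for complexes II to V, -0.05 for mitochondrial ribosomal proteins and -0.10 for import. How much of these group differences goes with transcript length rather than with the condition cannot be told apart here. Cytosolic ribosomal proteins, which are also short, had a median of 0.06, and of 0.19 with the trend removed. Proteasome subunits had a median of -0.28, and of -0.13 with the trend removed.

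**Figure D2:**
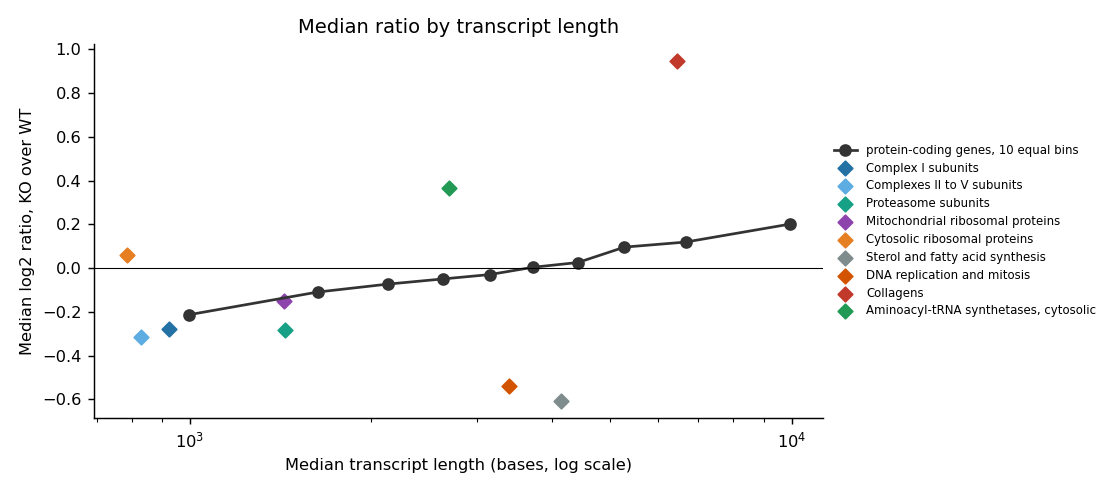
Black circles give the median log2 ratio of KO over WT in 10 equal bins of protein-coding genes against median transcript length on a log axis, and diamonds give the medians of 9 gene lists. Respiratory chain, proteasome and mitochondrial ribosomal lists lie on or somewhat below the line, while collagens lie far above it and sterol synthesis and DNA replication genes far below.

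No gene of the division and fusion machinery itself reached 2-fold. Among its 20 genes the median was 0.07 (-0.03 with the length trend removed), and Opa1, the inner membrane fusion GTPase, had counts of 1514 in WT, 2081 in KO and 1942 in rescue. Fis1, an outer membrane protein linked to division, had counts of 1561 in WT, 896 in KO and 1208 in rescue and is a short transcript. Autophagy and mitophagy genes likewise had none of 32 past 2-fold. Among carriers of the inner membrane, Slc25a37, the iron importer mitoferrin 1, was higher with counts of 1519 in WT, 3345 in KO and 2725 in rescue, and Slc25a10, the dicarboxylate carrier, was lower with counts of 407 in WT, 172 in KO and 221 in rescue. Of 19 regulators of mitochondrial biogenesis, 1 was higher, at a log2 ratio of 3.25, and 1 lower. Of these regulators 11 lay above 0, and the median was 0.03. The lower one was Prkaa2, the alpha2 catalytic subunit of AMPK, with counts of 103 in WT, 25 in KO and 33 in rescue. Ppargc1a, the coactivator PGC-1alpha, was at 80 counts in WT and 45 in KO.

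**Figure D3:**
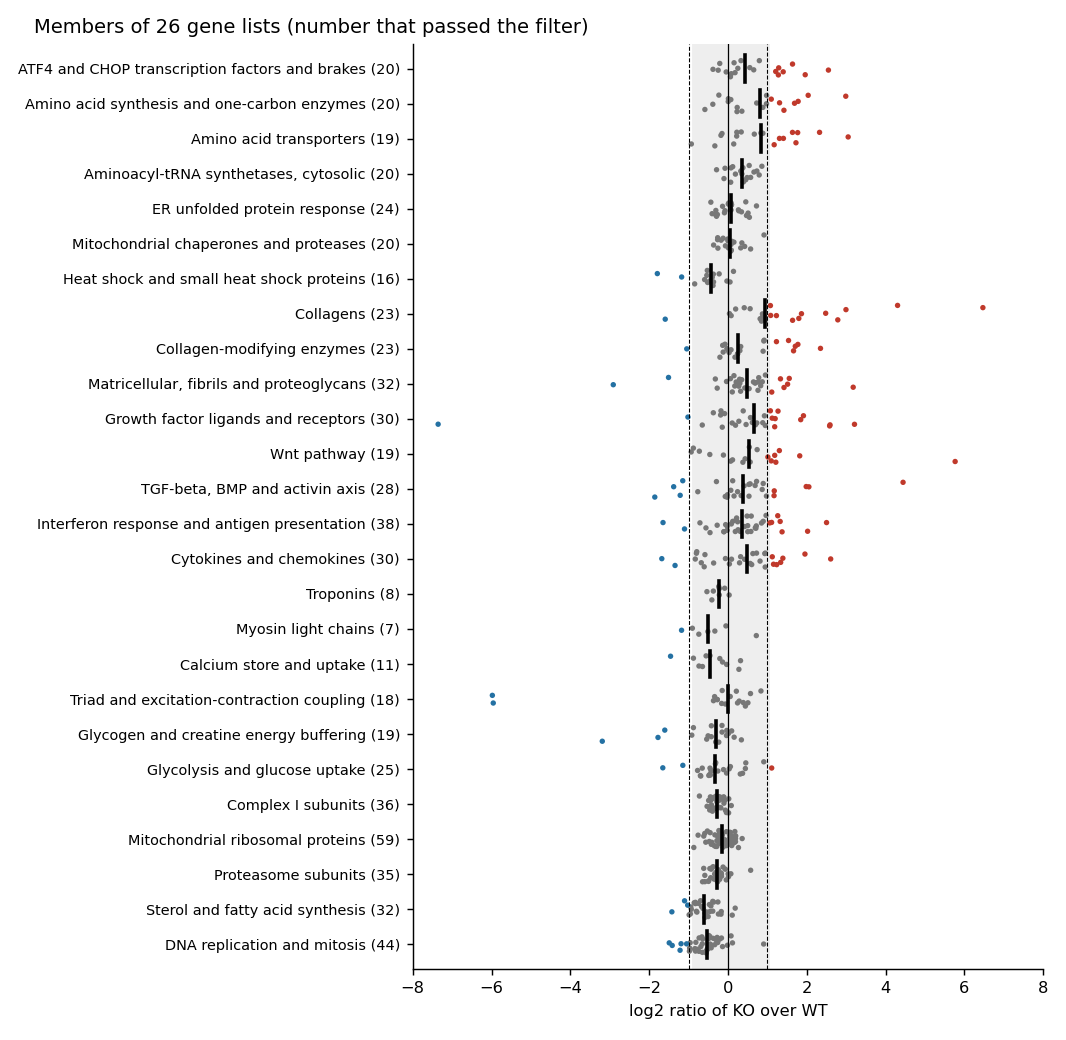
Points are members of 26 gene lists placed by their log2 ratio of KO over WT, thick bars are list medians, the grey band holds the central 90 percent of all genes and dashed lines mark 2-fold. Collagens (0.95), amino acid transporters (0.84) and synthesis enzymes (0.81) have the highest medians drawn, and sterol synthesis (-0.61) and DNA replication (-0.54) the lowest.

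Contractile genes did not move as a block. Over 78 genes of the 6 sarcomere lists, 2 were at least 2-fold higher and 9 lower, with 52 below 0 and a median of -0.21. The lowest ratios belonged to particular isoforms. Myh3, the embryonic myosin heavy chain, made up 88.9% of all sarcomeric myosin TPM in WT, 97.0% in KO and 93.8% in rescue. Myh1, the fast IIx form, made up 6.96% in WT, 0.69% in KO and 2.82% in rescue. Myh8, the neonatal form, and Myh4, the fast IIb form, were also lower, at 333 and 441 counts in WT against 44 and 31 in KO. Myh7b, a slow-type myosin, had counts of 117 in WT, 15 in KO and 47 in rescue. The summed myosin level was higher in KO, at 1735 TPM against 1445 in WT. Myh2, the fast IIa form, was close to even, at 373 counts for WT and 371 for KO, as was Myh7, the slow form, at 822 and 741. The sources used here do not state how reads shared by these close gene copies were counted, so their split is uncertain.

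None of 8 troponins passed 2-fold, but 7 lay below 0, with a median of -0.23 (-0.10 with the length trend removed). Tnnc2, fast troponin C, was the lowest at -0.53. Lmod3, which nucleates thin filaments, had counts of 2098 in WT, 676 in KO and 1285 in rescue. Tcap, the Z-disc cap of titin, had counts of 155 in WT, 36 in KO and 222 in rescue, and was above WT in rescue. Actn2, the Z-disc crosslinker, had counts of 176 in WT, 31 in KO and 89 in rescue, whereas Actn3, the fast-fibre form, had 9200 counts in WT and 10107 in KO. Nrap, a scaffold of myofibril assembly, was higher with counts of 838 in WT, 2444 in KO and 2808 in rescue. Ankrd2, a stretch-responsive protein, was higher with counts of 815 in WT, 5380 in KO and 5579 in rescue. Of genes coupling excitation to contraction, 2 of 18 were lower and none higher. Trdn, which anchors calsequestrin at the release channel, had counts of 663 in WT, 10 in KO and 37 in rescue. Cav3, muscle caveolin, had counts of 160 in WT, 2 in KO and 4 in rescue. The release channel gene Ryr1 did not follow, having 4570 counts for WT and 5469 for KO.

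Muscle promoters were searched for the E-box CAGCTG, a MyoD-family element, and for the MEF2 motif by name. The E-box was in 18.1% of all genes with a window and in 23 of 65 contractile genes (35.4%), and the MEF2 motif in 2.22% and in 12 of 65 (18.5%). Among genes past 2-fold, the E-box was in 23.2% of those higher and 26.4% of those lower. The MEF2 motif was in 3.17% of those higher and 4.44% of those lower. Of the 4 myosin genes past 2-fold lower in KO, the 3 with a MEF2 match are shown with the MEF2 motif in capitals.
Myh1, chr11:67199866-67199925, plus strand: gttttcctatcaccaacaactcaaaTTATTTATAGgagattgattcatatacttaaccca
Myh4, chr11:67237605-67237664, plus strand: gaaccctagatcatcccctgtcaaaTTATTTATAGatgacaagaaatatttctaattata
Myh8, chr11:67277000-67277059, plus strand: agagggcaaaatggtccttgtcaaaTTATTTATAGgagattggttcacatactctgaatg
The capitals are the same in all 3 genes. Klhl41, another contractile gene with a MEF2 match, had a log2 ratio of -0.89. Mef2c, 1 of the genes encoding the proteins that bind such sites, had counts of 1289 in WT, 305 in KO and 530 in rescue. Its part in the myosin values was not tested.

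Myogenic regulators split in direction. Of 22 transcription factors, 2 were higher and 3 lower. Besides Mef2c, Hdac9, a class IIa deacetylase that binds MEF2 proteins, was lower with counts of 179 in WT, 39 in KO and 55 in rescue, and Vgll2, a muscle TEAD cofactor, had counts of 524 in WT, 249 in KO and 279 in rescue. Eya4, a transcriptional cofactor of myogenesis, was higher with counts of 883 in WT, 2660 in KO and 2428 in rescue. Myog, the differentiation factor myogenin, was 11853 counts in WT and 16122 in KO. Of 20 fusion and adhesion genes, 2 were higher and 2 lower, with a median of -0.01. The higher ones were Il4ra, an interleukin-4 receptor chain, with counts of 329 in WT, 712 in KO and 653 in rescue, and Boc, a cell surface promoter of myogenesis, with counts of 33 in WT, 95 in KO and 88 in rescue. The lower ones were Cdh15 and Mymx. Cdh15, M-cadherin, had counts of 9651 in WT, 2756 in KO and 3318 in rescue. Mymx, the fusion micropeptide myomixer, had counts of 1820 in WT, 838 in KO and 1436 in rescue, while its partner Mymk had 10136 counts in WT and 8428 in KO. Heyl, a Notch target, was lower with counts of 622 in WT, 64 in KO and 58 in rescue, and Jag1, a Notch ligand, was higher with counts of 115 in WT, 296 in KO and 219 in rescue. At the neuromuscular junction, Agrn, agrin, which clusters acetylcholine receptors, had counts of 1487 in WT, 3813 in KO and 2988 in rescue. Colq, the collagen tail of acetylcholinesterase, had counts of 142 in WT, 14 in KO and 78 in rescue.

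**Figure D4:**
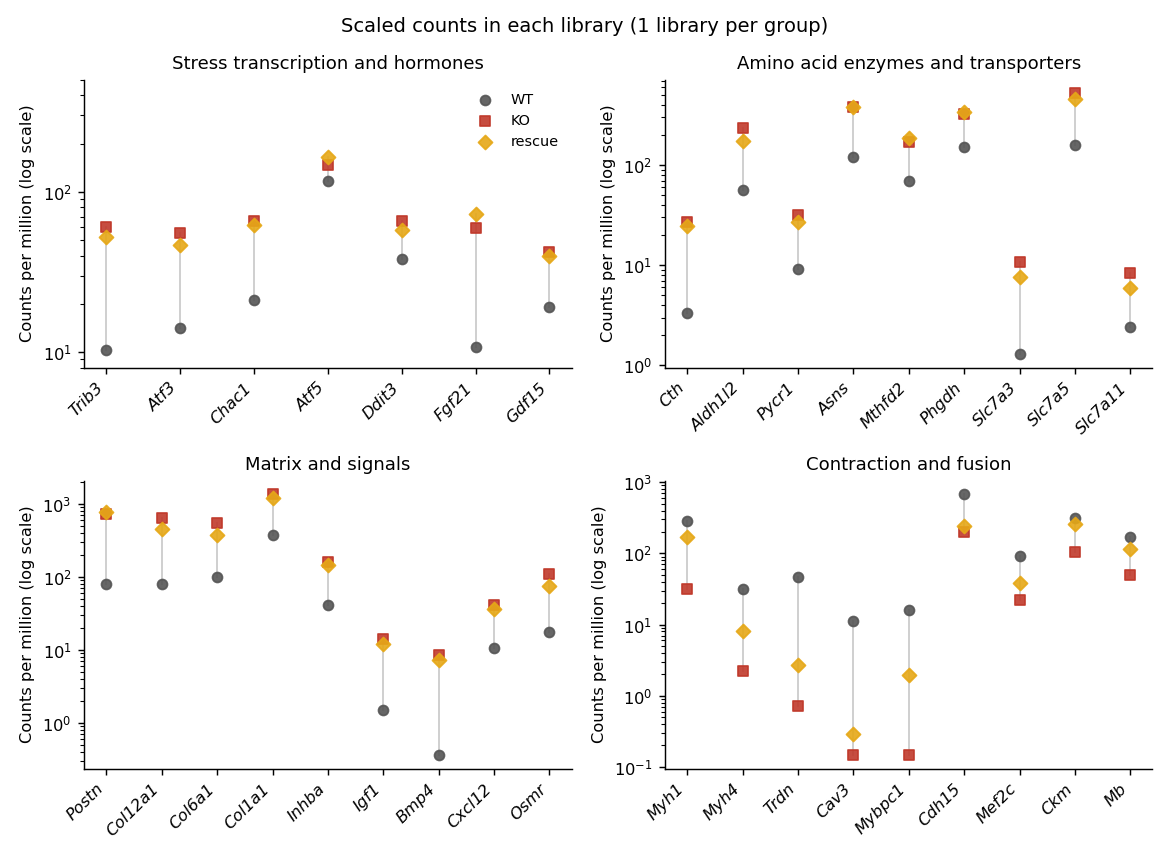
CPM values in each of the 3 libraries are drawn on log axes for 34 genes in 4 groups, grey circles for WT, red squares for KO and yellow diamonds for rescue. In the stress, amino acid and matrix panels the rescue value mostly lies nearer KO than WT. In the contraction panel it lies above KO and below WT for each gene drawn, and for some, such as Cdh15 and Cav3, it is also nearer KO.

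Ion channel genes of the muscle membrane had 5 of 18 members higher and none lower, with a median of 0.63. Kcnj15, an inward rectifier potassium channel, had counts of 4 in WT, 239 in KO and 166 in rescue. Scn4a, the skeletal muscle sodium channel, had counts of 431 in WT, 893 in KO and 883 in rescue. Atp1b1, a sodium pump beta subunit, was 2.38-fold higher.

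Extracellular matrix genes were also among those higher in KO. Of 23 collagens, 11 were at least 2-fold higher, 1 was lower, 22 lay above 0 and the median was 0.95. The network-forming collagen VI genes were among the highest: Col6a1 had counts of 1370 in WT, 7507 in KO and 5164 in rescue. Col6a2 had counts of 397 in WT, 2694 in KO and 1912 in rescue. Both had rescue values between WT and KO. Col12a1, a fibril-associated collagen, had counts of 1127 in WT, 8825 in KO and 6099 in rescue, and Col1a1, the main fibrillar collagen of connective tissue, had counts of 5243 in WT, 18763 in KO and 16217 in rescue. Postn, a matricellular protein that binds collagen and integrins, had counts of 1120 in WT, 9959 in KO and 10578 in rescue. Its log2 ratio was 3.18 (interval 3.09 to 3.27). Vcan, a large proteoglycan, was 2.68-fold higher, and Dcn, the small proteoglycan decorin, was 2.85-fold lower. Fn1, fibronectin, went from 1538 TPM in WT to 3107 in KO, the largest increase in level after the unnamed locus LOC118568312. The summed fibroblast marker level was lower in KO (918 TPM against 1433). Of its 9 members that passed the filter, 3 (Pdgfra, Dpt and Dpep1) were 2-fold higher and 2 (Dcn and Has1) lower, with a median of -0.08. Their part in the collagen values was not tested.

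Enzymes that modify collagen had 6 of 23 higher and 1 lower. The lysyl oxidase relatives Loxl3 and Loxl4, which crosslink collagen, were 3.27-fold and 3.17-fold higher. Among proteases, Mmp2, a gelatinase, had counts of 972 in WT, 2972 in KO and 2473 in rescue. Adamts1 and Adamts5, which cut proteoglycans, were 3.52-fold and 2.78-fold higher. Mme, the membrane peptidase neprilysin, had counts of 10 in WT, 267 in KO and 161 in rescue. Of integrins and laminins, 3 of 25 were higher and 2 lower. Itga11, a collagen-binding integrin, had counts of 64 in WT, 463 in KO and 317 in rescue, and Itga4 was lower with counts of 138 in WT, 56 in KO and 39 in rescue.

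Growth factor genes had 10 of 30 members higher and 2 lower, with a median of 0.66. Igf1, the insulin-like growth factor of muscle, had counts of 21 in WT, 195 in KO and 165 in rescue. Igf2, its fetal relative, had counts of 647 in WT, 2399 in KO and 2128 in rescue. Vegfc, a lymphatic growth factor, and Pdgfrb, a receptor of platelet-derived growth factors, were 5.98-fold and 3.59-fold higher. The 2 lower genes were Angptl4, a lipase inhibitor, at 402 counts in WT and 195 in KO, and Pdgfd. Pdgfd, a ligand of that receptor, stood at counts of 416 in WT, 2 in KO and 5 in rescue and a log2 ratio of -7.35 (interval -10.73 to -5.81). In the TGF-beta family, both activin subunit genes were higher: Inhba had counts of 567 in WT, 2206 in KO and 1976 in rescue. Inhbb had counts of 439 in WT, 1791 in KO and 1441 in rescue. Their inhibitor Fst, follistatin, was lower with counts of 713 in WT, 193 in KO and 396 in rescue. Bmp4, a bone morphogenetic protein, had counts of 5 in WT, 117 in KO and 99 in rescue, and the receptor Tgfbr2 was 2.32-fold lower. Of 19 Wnt pathway genes 7 were higher and none lower, but only 1 of the 7 had its whole counting interval past 2-fold. Sfrp2, a secreted Wnt modulator, had counts of 2 in WT, 133 in KO and 95 in rescue, a log2 ratio of 5.76 (interval 4.20 to 9.14).

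Interferon and antigen presentation genes had 7 of 38 higher and 2 lower. Ifi44 had counts of 213 in WT, 1187 in KO and 978 in rescue, and Psmb8, an immunoproteasome subunit, had counts of 36 in WT, 145 in KO and 99 in rescue. Of the macrophage markers, which summed to 12.9 TPM in WT and 18.7 in KO, 2 passed the filter: Cd68 had 22 and 55 counts and Cd14 had 103 and 113. Their part in these values was not tested. Among cytokine genes, 7 of 30 were higher and 2 lower. Osmr, the oncostatin M receptor, had counts of 247 in WT, 1480 in KO and 1017 in rescue. Cxcl12, a chemokine, had counts of 150 in WT, 572 in KO and 501 in rescue, and its receptor Cxcr4 was lower with counts of 213 in WT, 65 in KO and 68 in rescue. Complement genes C1s1 and Cfb were 5.61-fold and 4.74-fold higher, while Cd55, which shields cells from complement, had counts of 238 in WT, 1 in KO and 0 in rescue. Hsd11b1, which regenerates active glucocorticoid, had counts of 32 in WT, 746 in KO and 684 in rescue. Atrophy and FoxO genes had none of 19 past 2-fold, though 15 lay above 0.

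Metabolic genes were mostly lower by modest amounts, 110 of 157 lying below 0 with a median of -0.23. Ckm, muscle creatine kinase, had counts of 4406 in WT, 1424 in KO and 3527 in rescue. Mb, myoglobin, had counts of 2368 in WT, 679 in KO and 1602 in rescue, and Pgam2, muscle phosphoglycerate mutase, had counts of 331 in WT, 103 in KO and 353 in rescue. In these 3 the rescue value lay well above KO. Fabp3, a fatty acid binding protein of muscle, was lower with counts of 268 in WT, 50 in KO and 183 in rescue. Acot2, a mitochondrial acyl-CoA thioesterase, was higher with counts of 115 in WT, 535 in KO and 437 in rescue. Genes of sterol and fatty acid synthesis were mostly below WT: 3 of 32 reached 2-fold, 30 lay below 0 and the median was -0.61. Fdps and Idi1, of the isoprenoid branch, were 2.03-fold and 2.15-fold lower. DNA replication and mitosis genes had 41 of 44 below 0, a median of -0.54 and 5 lower by 2-fold. Rrm2, a ribonucleotide reductase subunit, had counts of 3081 in WT, 1303 in KO and 1474 in rescue, and Ccne2, cyclin E2, had counts of 204 in WT, 71 in KO and 82 in rescue.

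Ratios between related genes within a library do not depend on scaling between libraries. Of 28 pairs with enough counts, 8 had a ratio at least 2-fold lower in KO and 4 at least 2-fold higher. Alongside the myosins, the log2 ratio of Cox7a1 to Cox7a2, muscle over ubiquitous forms of a cytochrome oxidase subunit, went from -3.64 to -5.47 on 48 and 8 counts of Cox7a1. That of Cox8b to Cox8a, a pair of the same kind, went from -3.01 to -4.05 on 277 and 120 counts of Cox8b. That of Cox6a2 to Cox6a1, another such pair, went the opposite way, from -3.23 to -0.90. Ldha over Ldhb, the muscle and heart forms of lactate dehydrogenase, went from 5.94 to 4.26. Mthfd2 over Mthfd1 went from 0.94 to 2.17. The 3 troponin pairs of fast over slow forms moved by 0.56 or less.

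**Figure D5:**
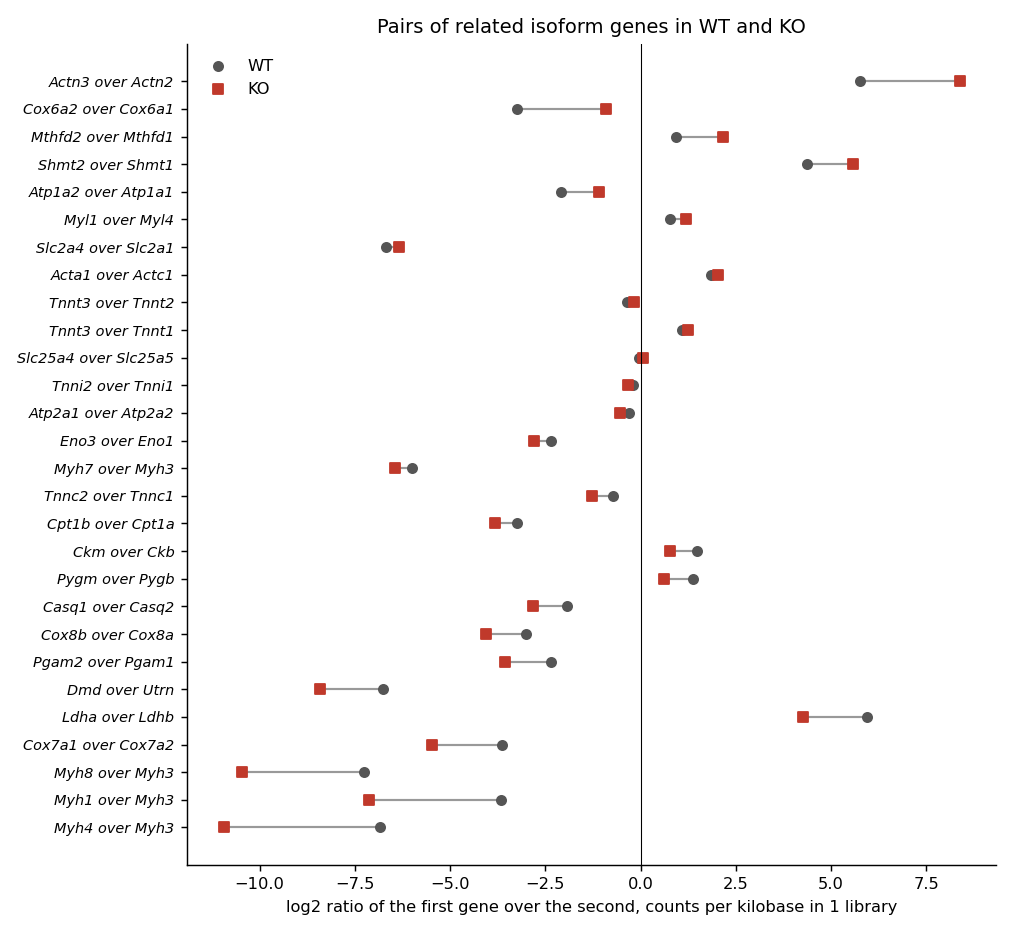
Each row is 1 of 28 pairs of related genes, with the log2 ratio of the first over the second in counts per kilobase, as a grey circle for WT and a red square for KO. The myosin pairs at the bottom and Actn3 over Actn2 at the top have the widest gaps, and the troponin pairs in the middle have small ones.

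Few genes were present in 1 library of the pair and nearly absent from the other. With 3 counts or fewer on one side and 100 or more on the other, 13 genes were lower in KO and 2 higher. Ppp1r14c, an inhibitor subunit of protein phosphatase 1, had counts of 349 in WT, 0 in KO and 0 in rescue, at least 114-fold lower in KO against the 3 counts that a count of 0 allows. Gprc5c, an orphan receptor, had counts of 498 in WT, 1 in KO and 4 in rescue. Mybpc1, a thick filament protein of slow fibres, had counts of 223 in WT, 2 in KO and 27 in rescue. In 5 of these 13 genes the rescue library also had 3 counts or fewer. The others had 4 to 7 rescue counts, apart from 12 in 1 gene and 27 in Mybpc1. Gng2, a G protein gamma subunit, was 1 of the 2 genes higher in KO by this rule, with counts of 3 in WT, 154 in KO and 129 in rescue. By change in level, Lgals1, galectin-1, had the largest decrease, from 8877 TPM in WT to 6204 in KO, followed among protein-coding genes by Mylpf, the fast regulatory light chain, from 7845 to 5759. Both are short transcripts. Loci annotated as microRNAs or tRNA also ranked among the largest changes, and their values per kilobase rest on very short annotated lengths.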

How the data were processed

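TRIzol extraction and a DNBSEQ-G400RS library kit are named per the labels' protocols. Per the submitters' processing notes, cutadapt 1.9.1, HISAT2 2.2.1 and featureCounts 2.0.0 were used with build GRCm39. Settings and strand handling were not found in those notes. The raw count column, as deposited, holds whole numbers per transcript row. The RPKM column deposited by the authors is the count per kilobase and per library total, and the deposited TPM column is that count per kilobase brought to 1 sum in every table. Neither normalized column was analysed, and TPM values printed here were recomputed over all genes from the row used.

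Rows of a gene share most reads, so each gene took its row with the highest count over the 3 libraries. Genes averaging at least 1 CPM were kept. TMM factors from edgeR 4.0.16 (R 4.3.3) scaled the counts, 0.5 was added to each count, and 2-fold was the threshold. Intervals are exact conditional Clopper-Pearson at 95%. They cover counting error alone, because 1 library per group gives no spread between samples. No molecular identifiers separate PCR copies, so even for counting error the intervals may be too narrow. With 1 library per group there is no p-value. The ratio script was tested on simulated counts. DESeq2 1.42.0 gave size factors for an alternative.

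The comparison and its 66 lists (1624 entries, 1 unmatched) were chosen with earlier results of these data known. Listed genes are named if they passed 2-fold with 100 or more counts in either library, or else are the 3 widest of their list, together with the 25 highest and 25 lowest ratios among genes with 200 or more counts, the 15 largest TPM changes each way and both genes of a pair. Eif2ak3, Glul, Slc6a6, Ppargc1a, Ryr1, Myog, Mymk, Myh2, Boc, Gng2, Cd14, Cd68, Dpt, Dpep1 and the cell type markers at 0 were named after their values were seen. So were Atf4, Ddit3, Slc1a4, Gars, Tars, Got1 and Nupr1. Promoter windows are from RefSeq (GRCm38.p6).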

Additional observations from a re-analysis of the deposited data

How the results depend on the processing

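No paired analysis was possible because each group has 1 library, and no library could be left out. The counts of genes past 2-fold depended on the filter on low counts. Without it 3331 genes were higher and 3606 lower in KO, so the direction with more genes changed. At a mean of 5 or more CPM 397 were higher and 244 lower, and 153 had their interval beyond 2-fold lower. Under the other 7 alternatives (library size alone, DESeq2 size factors, 5 counts added, the filter over WT and KO alone, mRNA rows alone, rows summed, length trend removed) each count stayed within 1.5 times. Of 39 lists with a median of at least 0.2 in size, 33 kept their sign under every alternative run. The medians that changed sign without the filter were smooth muscle markers at -0.0053, endothelial markers at -0.54, macrophage markers at -0.28, Schwann and neuronal markers at 0.025, and proteases at -0.22. At 5 or more CPM the secreted stress hormones changed sign, to -0.086. The cause was not tested. The endothelial list had no member left at 5 or more CPM or with rows summed, so it has no value there. No named gene past 2-fold changed sign, nor did any isoform pair whose ratio was at least 2-fold lower or higher in KO. Pairs with smaller differences were not checked for sign. Removing the length trend moved 3 of the 28 pairs by more than their counting error. With the length trend removed, 195 of 212 named genes stayed past 2-fold. Those that did not include Angptl4 at -0.93, Fdps at -0.89, Mymx at -0.93, Prdx1 at -0.88, Scn4a at 0.90, Tomm5 at -0.86 and Vgll2 at -0.94. Low counts limit the ratios of the lowest genes most.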

Other observations

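Several genes outside the groups described so far also differed widely. Snrpn, an imprinted gene of RNA splicing, had counts of 136 in WT, 13 in KO and 16 in rescue. Magea13 and Magea8, of the MAGE family, had 267 and 205 counts in WT against 0 and 25 in KO, and as a family of close copies their counts are uncertain. Cdh11, a cadherin of mesenchymal cells, went the other way, with 98 in WT, 967 in KO and 865 in rescue. Enpp2, the enzyme autotaxin, had 57 in WT, 593 in KO and 546 in rescue. In Snrpn, Cdh11 and Enpp2 the rescue value lay by KO and far from WT.

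Rows of the same gene seldom differed, but they share most of their reads, so similar ratios say little about transcript use. Among 7730 genes with at least 2 rows of enough counts, 3 had rows whose log2 ratios of KO over WT were 1 or more apart. They were Dst, a cytoskeletal linker, Slc25a36, a pyrimidine nucleotide carrier of mitochondria, and Rabgap1l. In Slc25a36 1 row had 47 counts for WT and 165 for KO, while another had 675 and 1055.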
